A study of Mus musculus with 6 samples.

Results

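Phospholipase C enzymes were examined as 10 genes, chosen by symbol: Plce1 of the epsilon class, Plcb1, Plcb2, Plcb3 and Plcb4 of the beta class, Plcg1 and Plcg2 of the gamma class, and Plcd1, Plcd3 and Plcd4 of the delta class. All 10 are among the 55291 gene symbols of the deposited table. RNA was sequenced from LLC cells, a line derived from a murine tumour, the Lewis lung carcinoma, that had received Cas9 with a guide against Calr (Calr KO, n = 3 libraries) or with a control guide (control, genotype label WT, n = 3). Both groups carried Cas9 from transiently delivered plasmids, were kept for 10 days, and were then plated and lysed 48 hours later with no added agent, all in 1 labelled batch. The design describes 1 cell population per group divided over 3 wells, so the errors here measure the spread between wells and not between independent knockouts. No cloning step is described, so the Calr KO wells may hold cells that were not edited.

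Phospholipase C enzymes cut the membrane lipid phosphatidylinositol bisphosphate into inositol trisphosphate (IP3) and diacylglycerol. IP3 opens its receptors in the endoplasmic reticulum (ER) membrane and releases the calcium stored there, while diacylglycerol activates protein kinase C. The classes differ in what switches them on: heterotrimeric G proteins for beta, tyrosine kinases for gamma, a rise in calcium for delta, and small GTPases of the Ras family as well as G protein subunits for epsilon. Calreticulin, the product of Calr, is a chaperone that also binds calcium inside the ER.

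The values are gene counts normalised by the authors, here called normalised counts, and each library summed to between 14040692 and 14099985 of them. Calr itself stood at 4379 ± 141 in Calr KO and 10653 ± 426 in control libraries (SD, n = 3), without overlap, so transcript remained in every Calr KO library. Mitochondrially encoded transcripts made up 2.89% to 2.97% of each Calr KO library and 2.78% to 2.80% of each control. The groups thus differed slightly but without overlap in this share, and its part in the results below was not tested. Library pairs correlated at 0.985 to 0.986 within and 0.984 to 0.986 between groups (log2 values, across genes). The 6 marker genes of the carcinoma line summed to 66145 to 68143 in Calr KO and 70362 to 72587 in control libraries, without overlap, mostly from Vim and Myc, which were lower in every Calr KO library but were not called. The part of this in the results was not tested. The keratin gene Krt8 and the mesenchymal gene Vim were both expressed, whereas the keratin gene Krt7 held at most 2.00 in any library. Of 7 epithelial and lung genes, Epcam, Sftpc, Sftpa1, Nkx2-1 and Scgb1a1 were at 0 in all 6 libraries. Sftpb held at most 2.89 and Cdh1 at most 4.98, each in a control library. The 7 genes summed to 0 to 3.08 in Calr KO and 1.03 to 5.78 in control libraries. The 7 endothelium markers, none at 0 throughout, summed to 58.0 to 67.5 in Calr KO and 48.6 to 71.6 in control libraries. The 8 fibroblast markers summed to 22997 to 24618 in Calr KO and 22280 to 23189 in control libraries, mostly from Col3a1. Over 13199 tested genes, those with a mean of at least 10, 37 passed an adjusted p of 0.05 between the groups (0.28%), and in 14.8% the groups did not overlap.

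The promoters of 2 members are printed, those of Plcg1, an abundant member below Plcb3, and of Plcb2, the least abundant. They do not stand for the family: counts of CpG dinucleotides were mixed among the low members, as given below. The stretches, with bases from RefSeq (GRCm38.p6), end where the first GENCODE exon begins, at chr2:160731060-160731299 on the plus strand for Plcg1 and at chr2:118728439-118728688 on the minus strand for Plcb2, and are written 5′ to 3′ with CpG dinucleotides in capitals.
Plcg1: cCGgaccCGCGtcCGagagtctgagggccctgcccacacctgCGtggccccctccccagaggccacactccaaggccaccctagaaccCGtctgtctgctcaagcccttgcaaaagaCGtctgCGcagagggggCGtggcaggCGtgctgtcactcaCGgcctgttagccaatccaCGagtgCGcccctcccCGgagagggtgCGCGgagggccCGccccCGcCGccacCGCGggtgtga
Plcb2: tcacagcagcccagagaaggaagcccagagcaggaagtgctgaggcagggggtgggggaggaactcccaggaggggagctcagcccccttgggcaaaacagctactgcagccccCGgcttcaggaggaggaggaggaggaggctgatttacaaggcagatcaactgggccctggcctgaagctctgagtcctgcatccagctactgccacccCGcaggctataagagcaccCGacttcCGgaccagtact
The Plcg1 stretch holds 21 CpG dinucleotides in 240 bases and the Plcb2 stretch 4 in 250.

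Plce1 encodes the epsilon enzyme, which is activated by Ras-family GTPases and also carries a domain that activates the GTPase Rap. The gene lies on the plus strand of chromosome 19 at 38481109 to 38785030 (ENSMUSG00000024998.17, GENCODE M21 on GRCm38). Calr KO replicates 1 to 3 held 53.1, 60.3 and 46.6 normalised counts, and control replicates 1 to 3 held 16.9, 16.3 and 20.4. All 3 Calr KO libraries were above all 3 controls, with a wide gap between the groups. In bulk RNA, more cells expressing a gene and more RNA per cell cannot be told apart. The family was chosen because an earlier analysis of these data had called Plce1 in this same comparison, so its difference, and those of the other members, are given as a description and not as a test. The mean was 53.3 ± 6.85 for Calr KO and 17.9 ± 2.19 for the controls (SD, n = 3), and the fitted difference on the log2(value + 1) scale was 1.52 (SE 0.23), 2.87-fold.

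Plce1 is a low transcript, and its depth limits what can be said of it. Taking the commonest low value of each library as 1 read, about 160 reads over the 3 Calr KO libraries and 54 over the 3 controls lay behind these values, a ratio of 2.97 with a 95% exact interval of 2.17 to 4.12 that covers counting error only and treats these approximate numbers as whole reads. The gene ranked above 13.9% of the tested genes by mean level. Among the 37 called genes its adjusted p was the 35th smallest, its mean the second lowest and its SE the second highest. Called or not, 19 tested genes were higher in Calr KO by at least 1.5 on the log2 scale. The call held in 6 of 15 alternative settings and was lost without any 1 of the 6 libraries, while the difference stayed between 1.35 and 1.62. The residual SD within groups was 0.17 on the log2 scale, against a median of 0.33 over the 200 tested genes nearest in level. A small spread helps a low gene to be called, and Plce1 was chosen by its call. Nothing is therefore read from this spread.

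**Figure D1:**
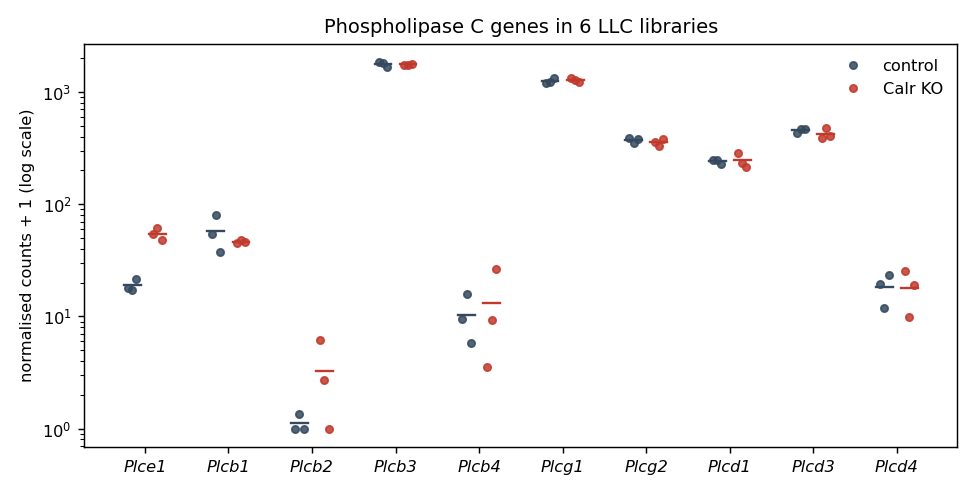
Normalised counts plus 1 on a log axis for the 10 phospholipase C genes, with 1 point per library and a short line at the mean of each group (control in dark blue, Calr KO in red). Plce1 is the member whose groups lie apart among those with a mean of at least 10, with Calr KO at 46.6 to 60.3 and control at 16.3 to 20.4.

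No other member showed this separation. Of the 9 members tested, Plce1 was the 1 called and the 1 whose groups did not overlap, which was true of 0.28% and 14.8% of all tested genes. By direction, 0.197% of the tested genes were called higher in Calr KO and 0.0833% lower, and the groups did not overlap in 7.57% with Calr KO higher and 7.28% with Calr KO lower. As the contrast had been used to choose the family, nothing is read from that count. The other 8 tested members, of which 3 had a difference above 0 and 5 below, ranged from -0.23 for Plcb1 to 0.02 for Plcd1, and those of Plcb3 and Plcb4 lay so near 0 that another scaling turned their sign. Their median was -0.03, beside 0.00036 over all tested genes.

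The beta enzymes answer to G protein coupled receptors, and Plcb3 was their main transcript in these cells. Plcb3 (chromosome 19, 6952325 to 6976470, minus strand) held 1749.5, 1747 and 1789.7 normalised counts in Calr KO replicates 1 to 3 and 1838.5, 1797 and 1657 in the controls. The 3 Calr KO values lay inside the range of the controls. The difference was -0.00042 on the log2 scale, with a 95% interval of -0.12 to 0.12, and its sign turned with the TMM scaling.

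Plcb1 (chromosome 2, 134786067 to 135475258, plus strand), a beta enzyme with a nuclear pool, held 44.2, 47.1 and 44.8 in Calr KO and 53.1, 79.2 and 36.3 in control replicates 1 to 3. The controls spread over a wider range than the Calr KO wells, with control replicate 2 highest and control replicate 3 lowest of all 6. The difference was -0.23 (95% interval -0.85 to 0.38). The processed pseudogene Gm14036 lies within Plcb1 on the same strand and held 4.65 to 7.18 in Calr KO and 9.03 to 12.5 in control libraries. Whether reads of this pair were shared was not tested.

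Plcb4 and Plcb2 were near the lower limit of the measurement. Plcb4 (chromosome 2, 135659011 to 136014593), best known from neurons and the retina, held 2.51, 8.24 and 25.6 in Calr KO and 8.51, 14.8 and 4.74 in control replicates 1 to 3. The highest and the lowest library were both Calr KO, 10.2-fold apart. Its residual SD of 1.16 exceeded that of 93.5% of the 200 genes nearest in level. The 95% interval of its difference, -1.63 to 1.63, includes changes of up to that size in either direction. Plcb4 passed the filter with a mean of 10.7 and Plcb2 did not, with a mean of 1.20. Plcb2, the beta enzyme of blood cells and taste cells, held 5.12, 1.73 and 0 in Calr KO and 0, 0.339 and 0 in control replicates 1 to 3, about 7 reads in all, and no fold is given.

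The gamma enzymes are recruited to phosphorylated receptors through their SH2 domains. Plcg1 (chromosome 2, 160731300 to 160775760, plus strand), the widely expressed form, held 1325, 1270.1 and 1227 in Calr KO and 1209, 1238 and 1330.2 in control replicates 1 to 3. The groups overlapped almost fully, and the difference was 0.02 (95% interval -0.11 to 0.15). Plcg2 (chromosome 8, 117498291 to 117635142, plus strand), the form known from B cells and myeloid cells, held 359.8, 329 and 383 in Calr KO and 389, 353 and 379.9 in control libraries, a difference of -0.07 (95% interval -0.27 to 0.13). The level of Plcg2 stood beside blood cell genes at or near 0: Adgre1, Tyrobp, Cd3e, Cd3d, Cd4, Ms4a1 and Nkg7 were at 0 in all 6 libraries. The 9 macrophage markers, 2 of them at 0, summed to 195 to 255 in Calr KO and 187 to 232 in control libraries, mostly from Cd68 and Cd14. The 9 lymphocyte markers, 5 of them at 0, summed to 7.16 to 9.74 and 0.964 to 6.22, which did not overlap, and the part of this in any result was not tested.

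The delta enzymes are the class most sensitive to calcium. Plcd3 (chromosome 11, 103070304 to 103101658, minus strand) held 388, 478 and 406 in Calr KO and 434, 468 and 463 in control replicates 1 to 3. Calr KO replicate 2 was the highest library and the other Calr KO wells the 2 lowest, and the difference was -0.11 (95% interval -0.32 to 0.11). Plcd1 (chromosome 9, 119071527 to 119093502, minus strand), the form whose lipid-binding domain serves as a probe for phosphatidylinositol bisphosphate, held 287, 231 and 216 in Calr KO and 247, 245 and 226 in control libraries. Calr KO wells spanned the control range on both sides, with a difference of 0.02 (95% interval -0.26 to 0.30). Plcd4 (chromosome 1, 74542888 to 74567794, plus strand) was low, at 24.4, 8.83 and 17.9 in Calr KO and 18.5, 11.0 and 22.4 in control libraries, and its interval of -1.05 to 0.90 is wide.

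**Figure D2:**
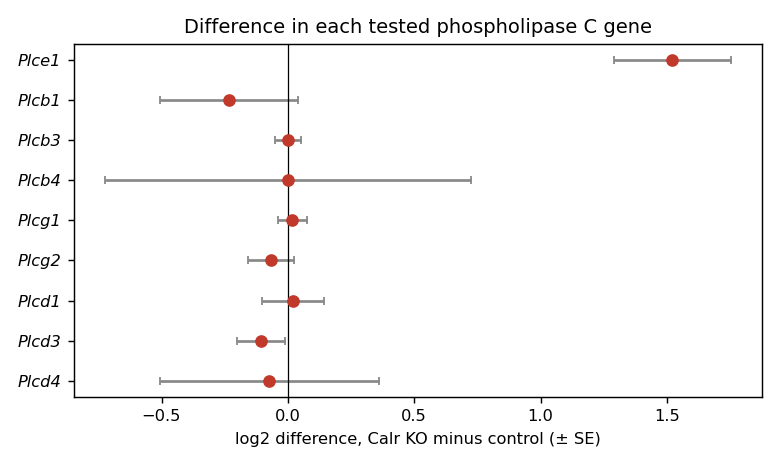
Difference between Calr KO and control on the log2(value + 1) scale for the 9 tested members, with bars of 1 SE from the limma fit over all tested genes. Plce1 lies at 1.52, and the bars of the low transcripts Plcb4 and Plcd4 are the widest.

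Some members share sequence space with other genes in the annotation, and the labels do not say whether counting used strand, so reads of opposite genes cannot be told apart where exons overlap. Ppp1r14b, on the strand opposite Plcb3, had 1077 ± 47.8 in Calr KO and 1072 ± 61.1 in control libraries. Zhx3, opposite Plcg1, ranged from 209 to 436 over the 6 libraries. Usp37 (1706 ± 54.1 against 1543 ± 185) and Zfp142 (977 ± 23.5 against 1011 ± 22.8) overlap the ends of Plcd4 on the opposite strand, each at a level far above that of Plcd4. The antisense gene Gm28991 within Plce1 was listed at 0 in all 6 libraries, and Gm27206, antisense to Plcg1, at no more than 1.93.

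Counts of different genes can be compared only per length, so each value was divided by the mean length of the gene's protein-coding transcripts and scaled to a sum of 1000000 per library over all genes with a length. On this scale the control libraries held 102 ± 5.16 of Plcb3, 56.8 ± 3.09 of Plcg1, 22.6 ± 1.09 of Plcd3, 11.0 ± 0.51 of Plcd1 and 10.7 ± 0.47 of Plcg2 (SD, n = 3). A gap followed, with Plcb1 at 1.15 ± 0.45, Plcd4 at 0.61 ± 0.20, Plce1 at 0.34 ± 0.043, Plcb4 at 0.33 ± 0.18 and Plcb2 at 0.0029 ± 0.0050. The first 3 lay apart from each other and from the rest in all 6 libraries. Plcd1 and Plcg2 overlapped in the controls, as did each neighbouring pair from Plcb1 down to Plcb4, so the order among these is not set beyond their spread.

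The leading 5 members made up 98.8% ± 0.18 of the summed length-adjusted level of the family in control and 98.5% ± 0.15 in Calr KO libraries. By class, the control libraries held 50.3% ± 2.19 beta, 32.9% ± 1.91 gamma, 16.6% ± 0.40 delta and 0.17% ± 0.023 epsilon. In Calr KO libraries these shares were 50.4% ± 1.24, 33.1% ± 0.75, 16.0% ± 0.91 and 0.50% ± 0.063. These shares depend on the length used: with the union of all exons the controls held 36.0% beta, 34.3% gamma and 29.6% delta, and with the longest transcript 42.3%, 33.3% and 24.2%. The length-adjusted level summed over the 10 genes was 204 ± 1.91 in Calr KO and 206 ± 2.90 in control libraries, so the higher Plce1 value moved the family sum by less than the spread between wells. At 1.02 ± 0.13, the length-adjusted level of Plce1 in Calr KO libraries overlapped that of Plcb1 (0.93 ± 0.032), and with the union of exons it lay below in all 3 (0.78 ± 0.10 against 0.95 ± 0.033). It remained far below that of Plcg2 (10.2 ± 0.76).

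**Figure D3:**
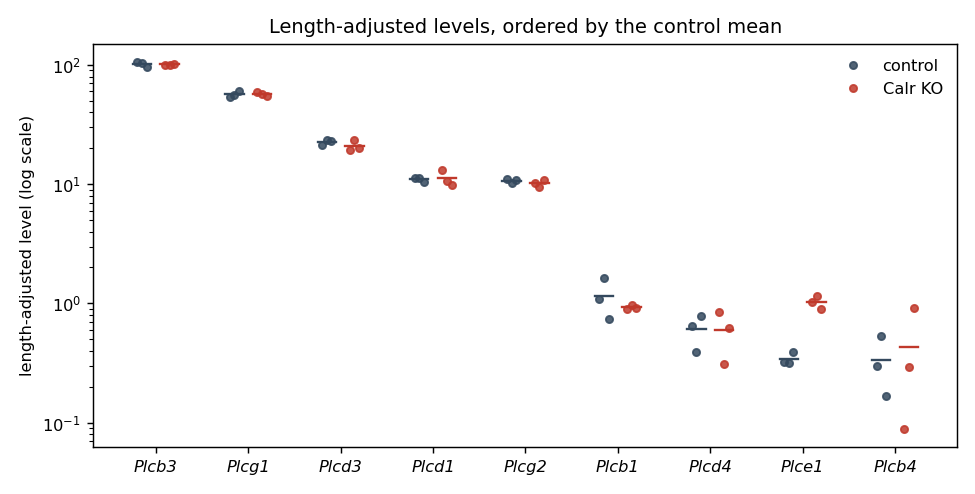
Length-adjusted levels on a log axis for the 9 members with a mean of at least 10, ordered by the control mean, with 1 point per library and a line at each group mean. Plcb3, Plcg1, Plcd3, Plcd1 and Plcg2 lie at 9.43 or more in each library and the others at 1.63 or less.

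The promoter windows of the members, 250 bases before to 50 after each RefSeq start, numbered 13 for the 10 genes. Over all 32851 windows used, the median was 7 CpG dinucleotides. Each of the 5 abundant members had a window with at least 21, namely 27 in Plcb3, 27 in Plcg1, 22 in Plcd3, 22 in Plcd1 and 21 in Plcg2. The other window of Plcd1 held 11. Among the low members the counts were mixed: 26 in Plcb1, 50 and 3 in the 2 windows of Plcb4, 3 in both windows of Plcd4, 5 in Plcb2 and 8 in Plce1. The ER stress element (CCAAT and CCACG with 9 bases between them, both strands) was in none of the 13 windows and in 0.119% of all windows. Also on both strands, the unfolded protein response element TGACGTGG was in none and in 0.676%, and the ATF4-type element TGATGCAAT in none and in 0.192%. The shorter box CCAAT, which is also part of the ER stress element, was in 4 windows, those of Plcg1, Plcd3 and both of Plcd4, and in 37.4% of all windows. No match says only that these letters are not in these windows. The RefSeq start of Plce1, at 38524197, lies inside an exon (38523915 to 38525452) of a longer annotated transcript, Plce1-204, that begins at 38481121. The deposited values are gene totals and do not separate the 2 starts.

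The genes around Plce1 were examined for a difference shared along the chromosome. Within 500 kb of either end, 8 genes were tested and 0 passed (limma, adjusted over all tested genes), with 1 at an unadjusted p under 0.05. The nearest on either side were Slc35g1, a transporter-family gene, at -0.03 (adjusted p = 0.912) and Noc3l, which acts in ribosome assembly, at 0.12 (adjusted p = 0.757). Myof, a membrane repair gene 438 kb before the Plce1 start, had 7000 against 8038 normalised counts, with all 3 Calr KO libraries below the controls and a difference of -0.20 (SE 0.03, adjusted p = 0.0749). The remaining genes, Cep55, Rbp4, Fra10ac1, Tbc1d12 and Hells, lay between -0.12 and 0.16. Over the 8 genes the median was -0.0043, with 4 above 0 and 4 below.

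**Figure D4:**
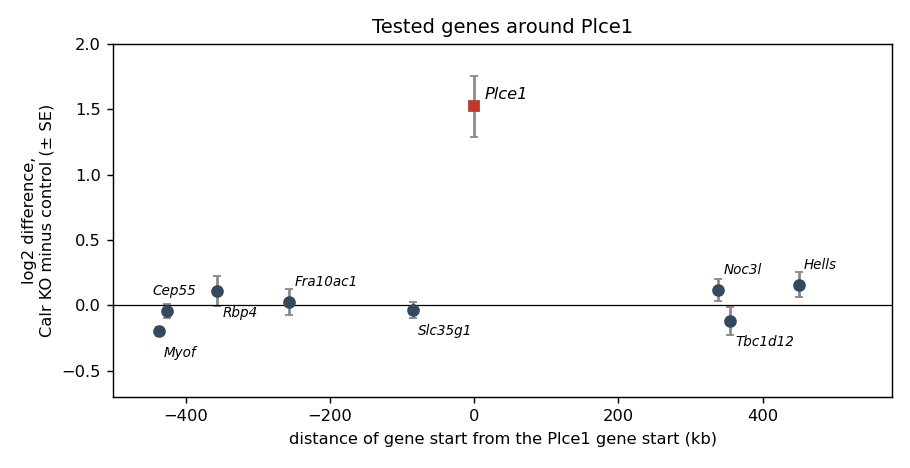
Difference between Calr KO and control (log2 scale, bars of 1 SE) for Plce1 (red square) and the 8 tested genes within 500 kb of it, against the distance of each gene's start from the start of Plce1 in kb. The 8 neighbours lie between -0.20 and 0.16, and Plce1 at 1.52.

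The genes whose values followed Plce1 most closely over the 6 libraries were Sele (Pearson r = 0.993), Lama3 (0.991), Baz1b (0.990), Scara3 (0.990) and Sdf2l1 (0.986). They encode E-selectin, a laminin alpha chain, a chromatin remodelling factor, a scavenger receptor family member and a partner of ER chaperones. The likeness follows the groups: 176 tested genes had an r above 0.9, and all 5 named genes had no overlap between Calr KO and control libraries. Lama3 (adjusted p = 1.64e-05) and Sdf2l1 (adjusted p = 0.00135) rose in the limma fit, while Baz1b (adjusted p = 0.485) and Scara3 (adjusted p = 0.165) did not pass. Sele, itself low, held 19.8, 25.6 and 19.7 in Calr KO and 6.98, 7.25 and 7.72 in control replicates 1 to 3, and did not pass (adjusted p = 0.193). None of the other 8 tested members resembled Plce1, with r from -0.47 for Plcg2 to 0.29 for Plcg1. These are descriptions over 6 libraries that share the groups by which Plce1 was chosen.

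Signalling genes around the enzymes were taken from 11 lists of 164 genes, of which 120 were tested, and 10 of these lists are described singly. None passed in either direction (limma, adjusted over all tested genes, smallest adjusted p = 0.207), beside 0.28% of all tested genes. At an unadjusted p under 0.05 there were 11 of the 120 (9.17%, against 8.88% of all tested genes). The groups did not overlap in 26 (21.7%, against 14.8%). The difference was above 0 in 45 and below 0 in 75, with a median of -0.04 beside 0.00036 for all tested genes.

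Among activators of the beta enzymes, 0 of 5 tested alpha subunits of the Gq and G12 families and 0 of 13 tested Gq-coupled receptors passed. Gna13, an alpha subunit of the G12 family, held 1873, 1786 and 1866 in Calr KO and 2206, 2065 and 2058 in control replicates 1 to 3. The groups did not overlap, and the difference was -0.20 (SE 0.05, adjusted p = 0.233). Gna12 differed by 0.10 (adjusted p = 0.670), with all Calr KO libraries above the controls. Gnaq, a direct activator of beta enzymes, differed by 0.10 (95% interval -0.12 to 0.33) with overlapping groups. Gna11, the close relative of Gnaq with the same role, lay on the other side of 0, at -0.22 (95% interval -0.41 to -0.03, adjusted p = 0.504), with all Calr KO libraries below the controls. Gna15, the lowest of this list, differed by -0.25 (adjusted p = 0.836) with overlapping groups. The thrombin receptor gene F2r, the most abundant receptor of the list, had 3187 ± 23.6 against 3395 ± 68.3 (adjusted p = 0.509), and its relative F2rl1 differed by -0.16. For both, all Calr KO libraries were below the controls. The groups did not overlap in 5 of the 13 tested receptors (38.5%) and 3 of the 5 alpha subunits (60.0%), beside 14.8% of all tested genes. Both directions occurred in each list. The receptor list ran from -0.21 for Ptgfr to 0.84 for Ptger1, a low gene with 16.9 to 104 normalised counts in Calr KO libraries.

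For the gamma enzymes, 0 of 20 tested tyrosine kinases and adaptors passed. The abundant receptor gene Fgfr1 differed by 0.00058 (95% interval -0.13 to 0.13), and Axl by -0.14 (SE 0.03, adjusted p = 0.270) with all Calr KO libraries below the controls. Erbb2 was the highest of this list at 0.43, with 355, 299.6 and 358 in Calr KO against 240.2, 253 and 255 in control libraries (adjusted p = 0.207). Its groups did not overlap, and neither did those of the low gene Tec, the lowest of the list at -0.71.

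The supply of the substrate and the handling of both products showed no call either. Of 16 tested genes of phosphoinositide supply 0 passed. Cds2, which makes the CDP-diacylglycerol used to rebuild phosphatidylinositol, had 2073 ± 89.1 against 2345 ± 45.8, without overlap (-0.18, adjusted p = 0.274), and the kinase gene Pip5k1c differed by -0.06. Of the 3 IP3 receptors, Itpr3 was the most abundant, with 4018 ± 88.5 against 4203 ± 280 (adjusted p = 0.769). Itpr1 differed by 0.0065 and Itpr2 by 0.28 (343 ± 39.5 against 282 ± 6.97, adjusted p = 0.486). For Itpr2 all Calr KO libraries were above the controls. All 16 IP3 kinases and inositol phosphate phosphatases were tested and 0 passed, with Impad1 at -0.07 and Ipmk at 0.04. For Impad1 all Calr KO libraries were below the controls, while the groups overlapped for Ipmk.

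On the diacylglycerol side, 0 of 9 tested protein kinase C and D genes, 0 of 8 diacylglycerol kinases and lipases and 0 of 5 other effectors passed. Prkca, a classical protein kinase C that needs both calcium and diacylglycerol, had 1387 ± 117 against 1286 ± 67.8 (0.11, adjusted p = 0.737), and Prkd3 differed by -0.05. Dgkd, a kinase that removes diacylglycerol, differed by 0.01 and the lipase gene Dagla by -0.07. Rasgrp3, a Ras and Rap activator that binds diacylglycerol, had the most negative value of all lists, at -1.60 (SE 0.50, adjusted p = 0.381). It held 11.0, 21.0 and 3.92 in Calr KO and 28.3, 33.0 and 35.4 in control replicates 1 to 3, so the groups did not overlap but the Calr KO wells differed widely. Unc13a and Chn1, the most abundant of these effectors, differed by -0.04 and 0.02.

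Of 8 phospholipase C genes outside the 10, 5 were tested and 0 passed. Plcl2, a relative without catalytic activity, had 271 ± 5.44 against 277 ± 40.3, and Plcxd2, which shares the catalytic X domain, 325 ± 32.2 against 339 ± 11.6. The list ran from -0.22 for Plcxd1 to 0.50 for Plch1, and Plcz1, the sperm form, and Plcxd3 were listed at 0 in all 6 libraries.

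**Figure D5:**
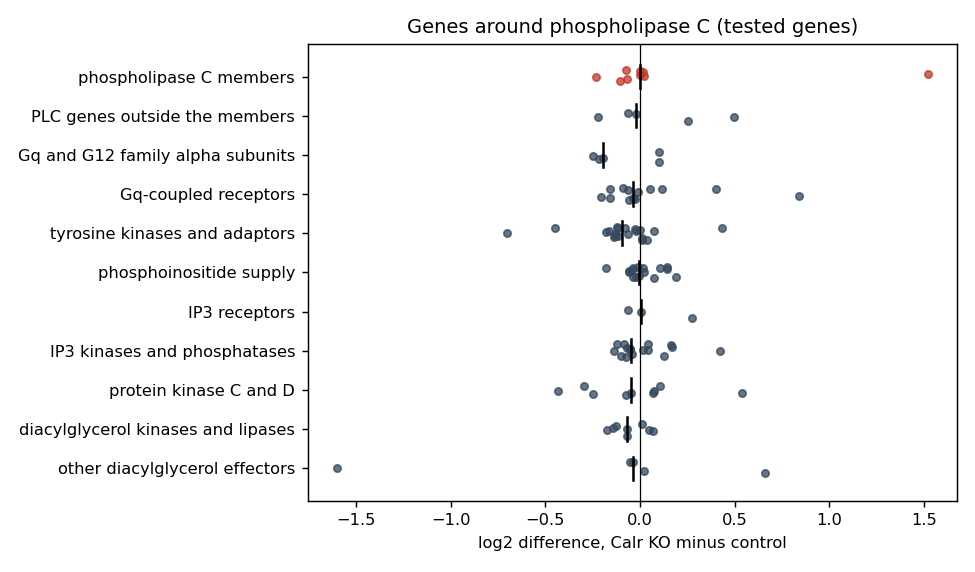
Difference between Calr KO and control on the log2 scale for each tested gene of 10 lists around phospholipase C (dark blue) and for the 9 tested members (red), with a black line at the median of each list. The points at the far ends are Plce1 at 1.52 and Rasgrp3 at -1.60, both low transcripts.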

How the data were processed

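Per the labels, each deposited value is a signal: the count of a gene in a library after normalisation by the authors with DESeq2. The tools in the submitters' processing notes are STAR (2.6.1d), Salmon (0.14.1) and DESeq2 (1.34.0), the build is mm10, and neither their roles nor the annotation is stated. Taking the commonest low value, 0.945 to 1.04, as 1 read puts depth at about 13565886 to 14920619 reads. Of values under 10 reads, 64.4% to 73.4% were whole within 0.02, and of values at 100 to 1000 reads, 3.12% to 6.02%. Larger values, and part of the low ones, are thus not whole reads, as estimated counts are not. No count model was therefore fitted across genes. Read numbers given for low genes are approximate. Counting intervals hold for counting error alone.

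Genes with a mean of at least 10 were tested with limma 3.58.1 in R 4.3.3 on log2(value + 1) (variance trend, two-sided, Benjamini-Hochberg over all 13199 tested genes, threshold 0.05). Log2 differences understate the change of low genes. Lengths, positions and overlaps are from GENCODE M21 (GRCm38), with a length for 96.4% of symbols, and promoters from RefSeq, leaving out chromosome 18. All 10 members matched both.

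The members and lists were chosen with earlier results of these data known. Named were Calr, all members, their overlapping genes above 0, tested genes within 500 kb of Plce1, the 5 genes most correlated with it, and the called or else the 2 most abundant genes of each list with those at its ends. Gnaq and the non-overlapping Itpr2, Gna11, Gna13, Axl and Cds2 were chosen after their values were seen. Of these, Gna11 alone is outside the rule above. Alternatives changed the pseudocount, filter, scaling, variance prior and lengths, added a replicate block, or left out each library. The list of small GTPases is not reported here beyond the totals over all lists.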

Additional observations from a re-analysis of the deposited data

How the results depend on the processing

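Of the phospholipase C genes, 1 was called, and 0 were called with no filter on low values, with no variance trend, with the replicate block, or without any 1 library (0 to 0 over the 6 fits). Over all genes 37 were called, 2 with no variance trend, and between 20 and 34 when 1 library was left out, with 20 and 21 when Calr KO replicate 1 or 3 was omitted and 22 when control replicate 2 or 3 was. With the replicate number as a block the count was 26. Same-numbered libraries did not deviate together (r = -0.0555, -0.0108 and 0.00145), so the numbers give no pairing. In 118 fits of members other than Plce1 under alternative settings 0 were called, and in 1795 fits of the pathway genes 0 were called. The Plce1 difference stayed above 0, from 1.35 with a pseudocount of 5 to 1.62. The share of Plcb3 in the family's length-adjusted level in control libraries, 49.6% with mean transcript length, was 35.1% with the union of all exons and 41.3% with the longest transcript. For Plcg2 it was 5.23%, 12.1% and 8.68%, and the union of exons placed Plcg2 before Plcd1. The low members lie at depths where only large differences could be detected, with 95% intervals wider than 0.9 on the log2 scale to either side for Plcb4 and Plcd4.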
